A study of Arabidopsis thaliana with 4 samples.

Results

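Of the genes whose RNA was recovered in an anti-Myc immunoprecipitation from Arabidopsis, 90 were at least 2-fold lower where the Myc-tagged Polycomb protein CURLY LEAF (CLF) was present than in wild-type plants that carried no tag. They were chosen from 1441 genes that had an identifier of their own in all 4 libraries, a locus of at least 300 bp, a value above 0 in every library and a mean of at least 2 FPKM in the control RIP. FPKM are sequenced fragments scaled by transcript length and by the size of the library. A gene was taken if its mean control RIP value plus 1 was at least 2 times its mean CLF RIP value plus 1, and if its higher CLF RIP value lay below its lower control RIP value. Over all, 14696 nuclear genes had their own identifier in the 4 libraries, of which 7735 were listed at 0 throughout. The rule left out 3 genes by name (AT2G01180, AT1G15002 and AT2G16586), which are not counted among the 1441. Because the rule used the values of all 4 libraries, the differences of the 90 genes between the groups are given as a description, with no test, and their groups cannot overlap.

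RNA immunoprecipitation (RIP) followed by sequencing was done on plants aged 3 weeks, all in the Col-0 background of the Columbia ecotype. The control RIP (2 libraries) came from wild type, and the CLF RIP (2 libraries) from the clf-28 mutant with a Myc-CLF transgene, which per the labels restores a normal phenotype. All plants grew on 1/2 MS medium with sucrose under 16 h of light and 8 h of dark. Crosslinked nuclei were sonicated, the same anti-Myc antibody was used on both genotypes, and libraries were primed at random. The labels do not give the promoter of the transgene, the number of independent lines or whether a group's libraries were made from different plants, and input RNA was not analysed here. A value in the control RIP is therefore RNA that came down with the antibody and beads without the tagged protein. The deposited tables carry names that give the opposite groups from the sample labels. The labels were followed (control and CLF libraries below), and every direction below turns if they are wrong.

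CLF is the catalytic subunit of a plant Polycomb repressive complex 2, which places methyl groups on lysine 27 of histone H3 at silenced genes. In an RNA immunoprecipitation, RNA enriched over the control is a candidate for contact with the tagged protein. RNA that is lower than in the control makes up a smaller share of the recovered RNA, and such shares depend on one another. In whole plants, fewer cells of a type and less RNA per cell cannot be told apart.

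Depth and library likeness were as follows. A single read on a locus of 75 bp, the shortest kind in the tables, was worth 10940 and 11294 FPKM in the control RIP and 25693 and 25765 FPKM in the CLF RIP, so 1 read weighed 2.31 times as much in the CLF RIP. Where FPKM came back as whole reads, a group's libraries lay within sampling noise of each other over 1246 of the eligible genes (chi-square over degrees of freedom 0.945 in the control pair, 0.934 in the CLF pair). Spread within a pair may thus be technical in these genes. Over the 84 members with recovered reads the values were 1.22 and 0.889. Such values would be larger where the true reads are a whole multiple of those used, and they leave out genes without whole reads. Over 2462 genes with their own identifier, Pearson's r was 0.926 within the control pair and 0.828 within the CLF pair. Between groups it ran from 0.722 to 0.764. CLF itself was listed at 25.9 and 27.1 FPKM in control libraries, against 4.24 and 25.7 FPKM in CLF libraries, and did not pass limma's test (log2 change -1.22, Benjamini-Hochberg adjusted p = 0.451). Summed over 4 leaf markers the level was 2711 and 2705 FPKM in the control RIP and 984 and 980 FPKM in the CLF RIP. These markers (LHCB1.1, LHCB1.3, RBCS1A and RCA) are also in the list of photosynthesis genes described below, so both results share values. Over 6 flower and seed markers the level was 36.0 and 50.3 against 8.71 and 10.9 FPKM. The flower genes SEP3, AP3, PI and AG made up nearly all of this sum, and the seed genes CRA1 and OLEO1 added little. Over 6 root markers the level was at most 0.276 FPKM in any library, with 3 of them listed at 0 in all 4 (CASP1, EXPA7 and IRT1). The part of these markers in the members' values was not tested.

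**Figure D1:**
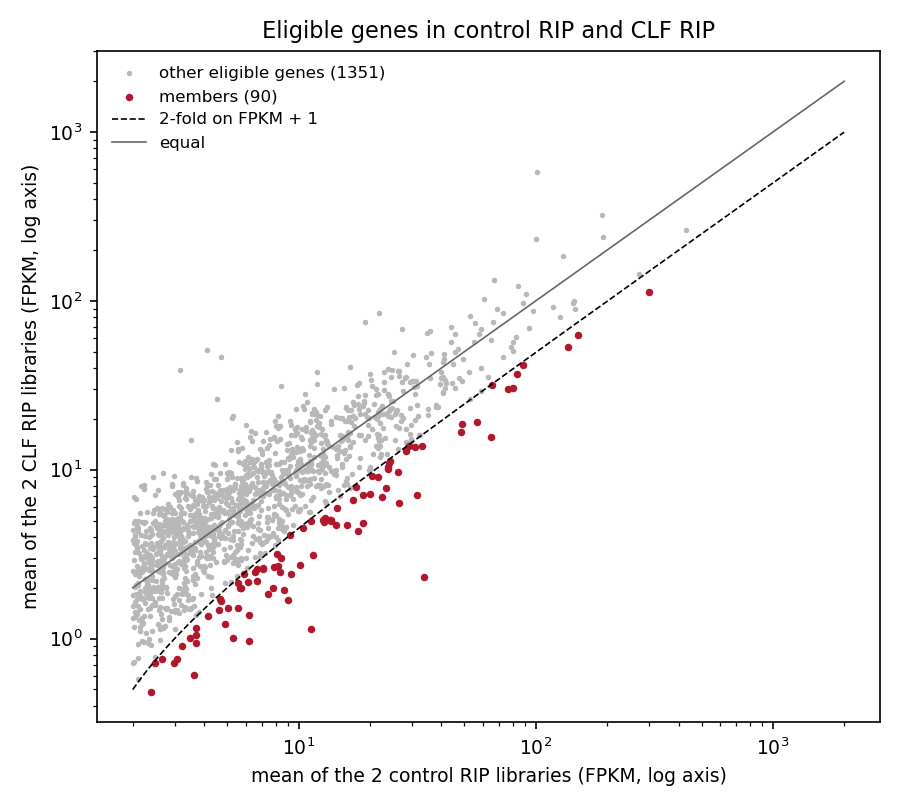
Mean FPKM of the 2 CLF RIP libraries against the mean of the 2 control RIP libraries for the 1441 eligible genes, both on log axes. The 90 members (red) lie on or below the dashed line, which marks the 2-fold bound on FPKM + 1, and the AT4G06477 point at 33.7 FPKM in the control RIP stands apart below the others.

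The 90 members spanned a wide range of levels. Single-library values ran from 1.27 to 302 FPKM in the control RIP and from 0.360 to 114 FPKM in the CLF RIP, with medians over the members' means of 11.2 and 3.64 FPKM. The fold between groups, on FPKM + 1, ran from 2.00 to 10.5 with a median of 2.35, so most members lay close to the bound. Just inside it were AT4G16000 (2.00), AT1G15670 (2.02) and AT5G17340 (2.02). Just outside were AT3G13175 (1.99), ERF5 (1.98) and AT5G37485 (1.97). The rule took 6.25% of the eligible genes, and 32.0% of them lay lower in the CLF RIP without overlap at any fold. In limma's fit over 2462 genes with their own identifier, 8.29% were called lower at an adjusted p under 0.05, and 70 of the 90 members were among them. That test used the same contrast as the rule, so nothing is read from its count, and limma called 0 genes lower when either control RIP library was left out (144 and 134 had an unadjusted p under 0.05).

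The members' values rested on few reads. For 84 of the 90, the 4 FPKM values were whole multiples of a common value, and the smallest whole numbers that gave their ratios were read as reads. They come from the values that chose the members, so they describe counting precision and support nothing. The sum over the CLF RIP libraries had a median of 15 reads and ran from 2 to 362, against a median of 127.5 reads in the control RIP. In 29 genes the CLF RIP sum was at most 10 reads, in 10 it was at most 3, and in 14 a CLF RIP library held 1 read. Scaled for depth and without the added 1, the ratio of control RIP to CLF RIP reads had a median of 2.88 and ran from 2.05 to 14.6. The 95% intervals given with this ratio, from exact binomial limits, cover counting error only and are no test of a gene chosen for being lower. Reads without molecular identifiers are not independent molecules. In 7 genes the reads could be a whole multiple of those given, which would narrow the interval.

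**Figure D2:**
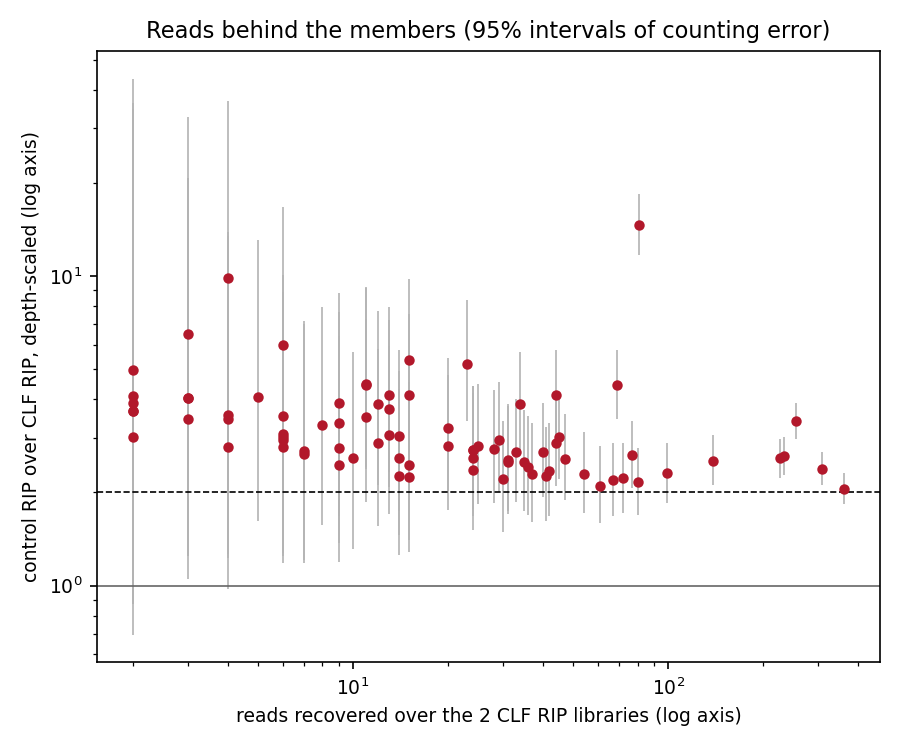
Ratio of control RIP to CLF RIP reads, scaled for depth, against the sum of reads in the 2 CLF RIP libraries, both on log axes, for the 84 members with recovered reads. Bars are 95% intervals of counting error, the dashed line marks a ratio of 2 and the solid line a ratio of 1. Intervals narrow from left to right, from 2 to 362 CLF RIP reads.

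Cell surface proteins were the products of 7 members. Arabinogalactan proteins are heavily glycosylated proteins of the plasma membrane and cell wall, and fasciclin-like proteins are a branch of them with adhesion-like domains. AGP16, which codes for a short arabinogalactan peptide, was listed at 295 and 302 FPKM in control libraries, against 111 and 114 FPKM in CLF libraries. It was the most abundant member in every library, and its pairs lay far closer together than its groups, which the rule kept apart. AGP12, another arabinogalactan peptide gene, was at 44.1 and 52.8 FPKM in control libraries, against 17.5 and 16.0 FPKM in CLF libraries. Its 44 CLF RIP reads put the ratio of reads at 2.89 (95% interval 2.1 to 4.06). AGP5 was at 18.9 and 16.7 against 2.88 and 5.77 FPKM. The 2 CLF RIP values of AGP5 differed 2-fold, being 5 and 10 reads. AGP25 was at 4.16 and 5.15 against 0.976 and 2.45 FPKM. It had 7 CLF RIP reads in all, and its interval ran from 1.21 to 7.14.

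The fasciclin-like members were FLA9 and FLA7. FLA9 was at 19.7 and 17.6 FPKM in control libraries, against 5.95 and 3.69 FPKM in CLF libraries, a ratio of reads of 3.86 (2.70 to 5.68). FLA7 was at 12.9 and 14.2 against 5.63 and 4.44 FPKM, and its values gave no whole reads. PHI-1, an EXORDIUM-like gene named for its induction by phosphate in tobacco cells, was at 19.3 and 21.3 against 8.37 and 9.92 FPKM. Its ratio of reads was 2.22 (1.72 to 2.90), and the rule itself required both CLF RIP values to lie under both control RIP values.

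Genes of lipid transfer and wax made 3 members. LP1 codes for LTP1, a secreted lipid transfer protein, and was at 136 and 138 FPKM in control libraries, against 55.1 and 51.4 FPKM in CLF libraries. It rested on 226 CLF RIP reads, with a ratio of 2.57 (2.23 to 2.98). CYP96A15, the MAH1 hydroxylase that turns alkanes of stem wax into alcohols and ketones, was at 3.21 and 4.18 against 1.23 and 1.08 FPKM. AT4G08670, the glycosylphosphatidylinositol-anchored lipid transfer gene LTPG4, was at 3.50 and 1.27 against 0.483 and 0.484 FPKM. Its CLF RIP values were 1 read each, or a multiple of that, and its control RIP values lay further apart than those of most members.

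Products of the plastid made 5 members, at very different levels. PSAG, a subunit of photosystem I, was at 150 and 152 FPKM in control libraries, against 62.7 and 63.7 FPKM in CLF libraries. Its 308 CLF RIP reads gave a ratio of 2.38 (2.11 to 2.70). LHCB4.2, one of the genes for the antenna protein CP29 of photosystem II, was at 85.6 and 90.6 against 40.1 and 43.2 FPKM. These were among the tightest pairs of the set. NdhM, a subunit of the chloroplast NAD(P)H dehydrogenase-like complex, was at 7.69 and 9.11 against 2.67 and 3.35 FPKM. AOR, a chloroplast reductase of reactive carbonyls, was at 5.43 and 5.87 against 1.79 and 2.2 FPKM. SIGE, better known as SIG5, a nuclear-coded sigma factor that directs the plastid RNA polymerase to its promoters, was at 2.82 and 2.49 against 0.829 and 0.693 FPKM. Its 11 CLF RIP reads left an interval of 1.86 to 7.25 on a ratio of 3.50.

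Stress and defence genes were the most numerous named group, with 9 members, and their CLF RIP sums were at most 47 reads. The zinc finger gene ZAT11 was at 7.56 and 9.83 FPKM in control libraries, against 2.84 and 1.07 FPKM in CLF libraries. ERF6, an ethylene response factor of rapid stress responses, was at 15.9 and 18.1 against 6.73 and 6.46 FPKM. PBP1, a calcium-binding partner of the kinase PINOID, was at 28.1 and 34.1 against 13.2 and 14.0 FPKM. Within each of ERF6 and PBP1, the libraries of a group lay close together. The defensin genes PDF1.2b and LCR68, the latter also named PDF2.3, code for small antimicrobial proteins. PDF1.2b was at 67.8 and 44.8 against 19.1 and 19.2 FPKM, and LCR68 was at 14.1 and 14.6 against 6.49 and 2.89 FPKM. PDF1.2b has close copies in the genome, so its reads are uncertain. RLP51, the receptor-like protein SNC2 of immune signalling, was at 6.88 and 7.29 against 3.01 and 2.16 FPKM.

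In 2 of the stress genes a single library set the size of the fold. NIMIN1, whose product binds the salicylic acid regulator NPR1, was at 7.19 and 5.88 FPKM in control libraries, against 0.704 and 4.23 FPKM in CLF libraries, the latter being 1 and 6 reads. Its fold of 2.17 became 1.44 without CLF RIP replicate 1, but 4.42 once replicate 2 of that group was left out. CML37, a calmodulin-like calcium sensor, was at 10.4 and 8.13 against 4.02 and 0.806 FPKM, from 10 and 2 CLF RIP reads. Its fold of 3.01 became 5.69 without CLF RIP replicate 1, but 2.05 once replicate 2 was left out. The unnamed gene AT4G27654 was at 29.9 and 27.1 against 18.0 and 7.72 FPKM, and its fold of 2.13 became 3.38 without CLF RIP replicate 1, but 1.55 once replicate 2 was left out. MT1C, a metallothionein gene, was at 2.00 and 5.38 against 0.941 and 0.944 FPKM. Its fold of 2.42 became 3.28 without control RIP replicate 1 and 1.55 without control RIP replicate 2. No other member moved by over 1.5 times when 1 library was left out, although 37 fell under 2-fold without some library and 53 kept it without any 1.

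**Figure D3:**
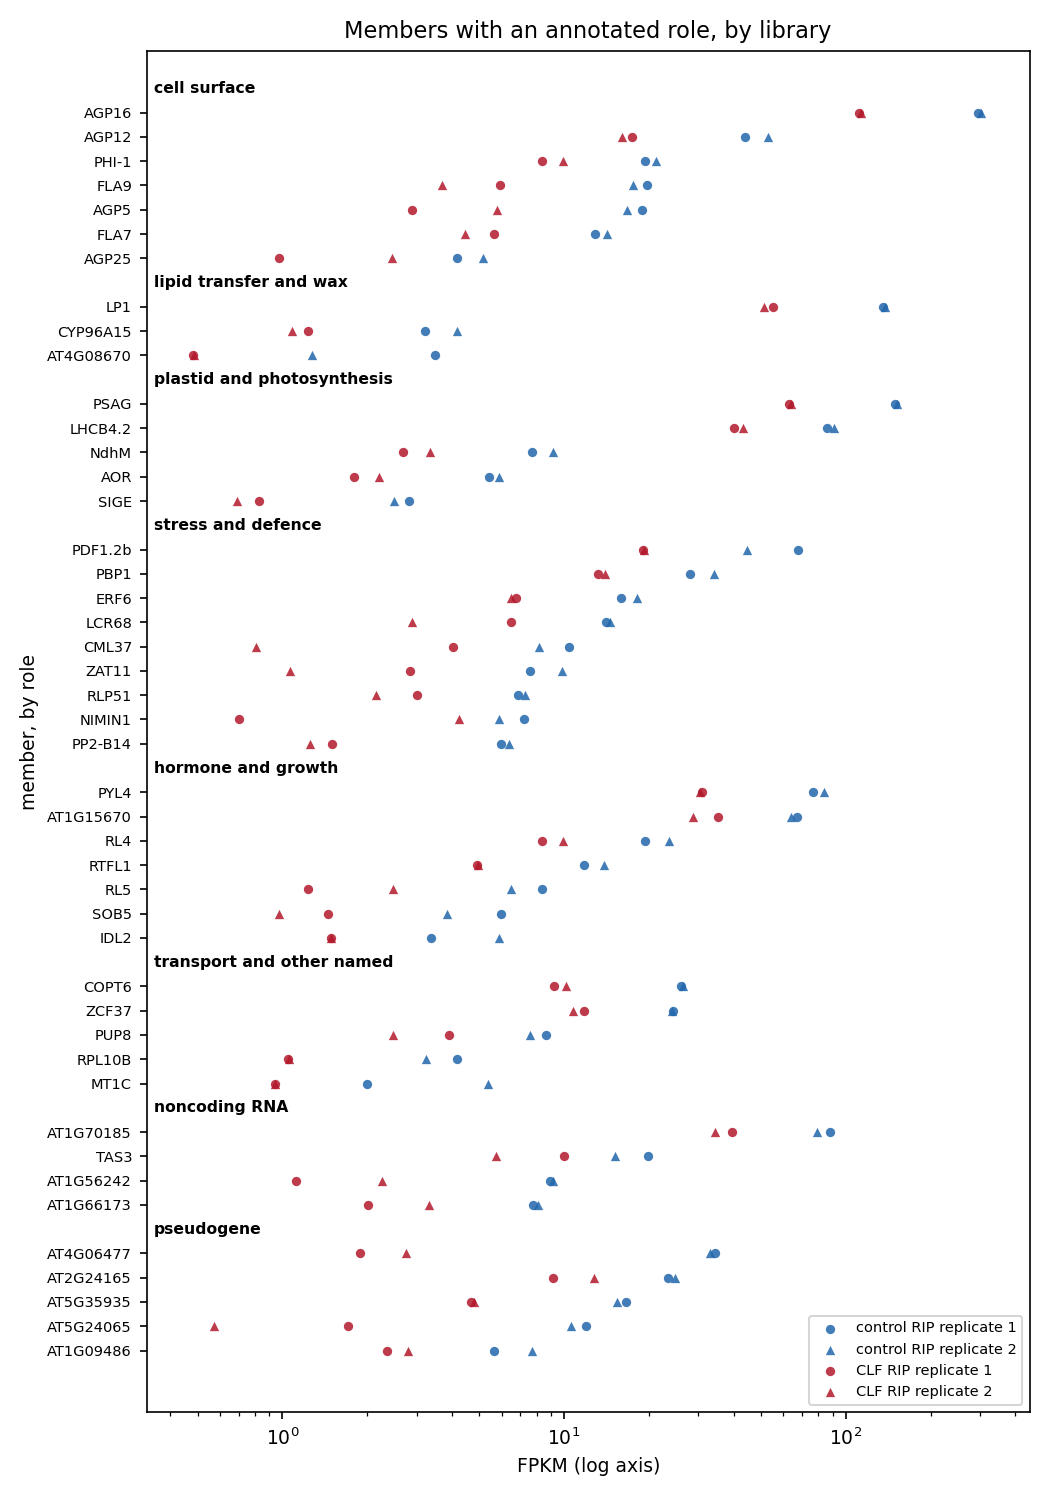
FPKM in each library, on a log axis, of the 45 members given a role here or a pseudogene or noncoding class in the annotation, grouped by role. Circles are replicate 1 and triangles replicate 2, in blue for the control RIP and red for the CLF RIP. Red and blue do not overlap in any row, as the rule requires, and the 2 red points of CML37 and NIMIN1 stand farthest apart.

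Hormone and growth genes made 7 members. PYL4, an abscisic acid receptor, was at 76.5 and 83.6 FPKM in control libraries, against 30.8 and 30.4 FPKM in CLF libraries. It rested on 234 CLF RIP reads and had a ratio of 2.62 (2.28 to 3.02). AT1G15670, the F-box gene KISS ME DEADLY 2 whose product marks type-B cytokinin response regulators for breakdown, was at 67.2 and 63.7 against 35.2 and 28.6 FPKM. It had the most CLF RIP reads of the 84 genes, 362, and a narrow interval of 1.83 to 2.31 around a ratio of 2.05. SOB5, which raises cytokinin levels when overexpressed, was at 5.99 and 3.84 against 1.46 and 0.973 FPKM, from 5 CLF RIP reads.

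The RADIALIS-like genes RL4 and RL5 code for small MYB-type proteins. RL4 was at 19.4 and 23.7 FPKM in control libraries, against 8.34 and 9.89 FPKM in CLF libraries. RL5 was at 8.38 and 6.49 against 1.23 and 2.47 FPKM, where 1.23 FPKM was 1 read or a multiple of it. The peptide genes RTFL1 and IDL2 belong to the ROTUNDIFOLIA family, whose overexpression limits organ growth, and to the family of the abscission signal IDA. RTFL1 was at 11.7 and 13.9 against 4.92 and 4.94 FPKM. IDL2 was at 3.37 and 5.87 against 1.48 and 1.49 FPKM. The CLF RIP values of both were equal in reads, 5 and 5 for RTFL1 and 3 and 3 for IDL2.

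Transport and other named genes made the remaining named members. The copper transporter gene COPT6 was at 25.9 and 26.5 FPKM in control libraries, against 9.18 and 10.2 FPKM in CLF libraries. The purine permease gene PUP8 was at 8.65 and 7.58 against 3.90 and 2.47 FPKM, and ZCF37 was at 24.4 and 24.1 against 11.8 and 10.7 FPKM. In COPT6 and ZCF37 the gap between the groups, which the rule itself required, was wider than the spread of either pair. RPL10B, for a protein of the large ribosomal subunit, was at 4.18 and 3.23 against 1.05 and 1.05 FPKM, the latter 3 reads each.

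The gene with the largest fold was a pseudogene. AT4G06477, on chromosome 4 (chr4:3060975-3065294, TAIR10), was listed at 34.4 and 32.9 FPKM in control libraries, against 1.88 and 2.74 FPKM in CLF libraries. These were 1420 and 1314 reads against 33 and 48, which gave a ratio of 14.6 (11.7 to 18.4). That was the highest ratio of the 84 genes. AT5G35935, a pseudogene on chromosome 5 (chr5:14083388-14089891, TAIR10), spanned 6504 bp, more than any other member. It was at 16.6 and 15.5 against 4.69 and 4.78 FPKM, or 1050 and 945 against 126 and 128 reads, a ratio of 3.39 (2.98 to 3.88). The transcribed pseudogene AT5G24065 had the second largest fold, 5.71, at 11.9 and 10.6 against 1.71 and 0.573 FPKM. It had 3 and 1 CLF RIP reads, and its interval of 3.71 to 36.8 was wide. The transcribed pseudogenes AT2G24165 (23.4 and 24.7 against 9.16 and 12.8 FPKM) and AT1G09486 (5.65 and 7.72 against 2.36 and 2.79 FPKM) lay close to the bound. Pseudogenes can share reads with the genes they resemble, and no label or header says how the counting treated such reads.

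Noncoding RNA genes made 4 members. TAS3, the precursor of small interfering RNAs that act on auxin response factor mRNAs, was at 19.8 and 15.2 FPKM in control libraries, against 10.0 and 5.72 FPKM in CLF libraries. AT1G70185 was at 88.1 and 79.1 against 39.6 and 34.3 FPKM over a span of 337 bp, the shortest of the set. AT1G66173 was at 7.75 and 8.08 against 2.02 and 3.32 FPKM. AT1G56242, annotated as a long noncoding RNA, was at 8.89 and 9.17 against 1.12 and 2.25 FPKM, or 93 and 93 against 5 and 10 reads. Its ratio of 5.36 (3.16 to 9.76) was above that of most members, whose median was 2.88.

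AT1G56242 lay within a small cluster on chromosome 1. Its locus (chr1:21056401-21057815, TAIR10) shared 1177 bases with PP2-B13, an F-box gene just outside the bound, which was at 3.42 and 3.97 FPKM in control libraries, against 2.26 and 0.503 FPKM in CLF libraries (fold 1.97). Some 3784 bases further on, with AT1G08127 between, lay PP2-B14, also named VBF, an F-box gene induced by Agrobacterium infection. PP2-B14 was at 5.96 and 6.37 against 1.5 and 1.25 FPKM, a ratio of reads of 4.48 (2.41 to 9.22). No label or header says whether the counting used strand, so reads of AT1G56242 and PP2-B13 cannot be told apart. Of the 90 members, 10 overlapped another gene of the annotation, among them PSAG, LHCB4.2 and AOR.

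Another 4 pairs of members lay with at most 4 genes between them. FLA9 had AT1G03820 as a near neighbour, and AGP5 had AT1G35210, which was at 74.0 and 78.3 FPKM in control libraries, against 28.5 and 31.6 FPKM in CLF libraries. PBP1 lay near AT5G54530 (8.70 and 11.5 against 3.75 and 1.67 FPKM), and AT4G15975 (5.05 and 6.02 against 1.83 and 2.44 FPKM) lay near AT4G16000. Whether such pairs are more frequent than among other eligible genes was not tested.

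The other 45 members were protein-coding genes without a name in the annotation used, so they are given by identifier, with no role. Their folds ran from 2.00 to 4.01 with a median of 2.32. The group counts above cover only members given a role, and some unnamed members may belong to the same groups. AT1G24140 was at 33.2 and 30.0 FPKM in control libraries, against 7.43 and 6.83 FPKM in CLF libraries, and AT1G20823 was at 64.2 and 64.7 against 14.2 and 17.0 FPKM. Their ratios of reads, 4.44 (3.46 to 5.77) and 4.13 (3.03 to 5.77), were above the members' median of 2.88. AT5G45460 was at 5.14 and 5.42 against 1.14 and 0.883 FPKM, a ratio of 5.20 (3.40 to 8.34). AT3G55860 was at 3.53 and 3.74 against 0.607 and 0.609 FPKM, from 3 CLF RIP reads in each library. AT4G37290 was at 7.63 and 4.78 against 0.640 and 1.28 FPKM, from 1 and 2 reads. These last genes had high ratios but wide intervals, 2.63 to 16.8 for AT3G55860 and 2.08 to 32.6 for AT4G37290.

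Further unnamed genes differed in depth. AT5G48490 was at 18.8 and 34.1 FPKM in control libraries, against 5.88 and 6.88 FPKM in CLF libraries, with control RIP values that differed more than its CLF RIP values. AT2G31945 was at 20.1 and 25 against 7.63 and 6.26 FPKM, and AT5G39670 at 23.1 and 23.7 against 8.95 and 6.56 FPKM. AT5G55620 was at 6.40 and 9.13 against 2.65 and 1.33 FPKM. AT1G64107 had 1 read in each CLF RIP library, at 10.6 and 12.3 against 3.12 and 3.12 FPKM, and its interval began at 0.872. AT4G28085 was at 52.1 and 45.4 against 21.7 and 15.4 FPKM and gave no whole reads. The unnamed members thus ranged from well-counted genes to genes with a single read per library.

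Other unnamed members had well over 30 CLF RIP reads. AT5G38990 was at 9.60 and 11.2 FPKM in control libraries, against 4.64 and 4.38 FPKM in CLF libraries, from 99 CLF RIP reads (ratio 2.3, 1.86 to 2.89). AT5G15780 was at 18.8 and 18.7 against 7.90 and 6.27 FPKM, from 77 CLF RIP reads (ratio 2.64, 2.07 to 3.41). AT4G29030 was at 31.6 and 26.5 against 11.3 and 16.4 FPKM (ratio 2.1, 1.59 to 2.82). The counting precision of these 3 was among the better ones of the unnamed members. At the other end, AT1G55365, AT2G35345 and AT5G53820 had 1 read in each CLF RIP library, that of AT1G55365 possibly a multiple. Their intervals began at 0.694, 0.872 and 0.990. AT5G28610, with 2 and 2 CLF RIP reads, was at 5.35 and 4.05 against 1.67 and 1.68 FPKM, and its interval began at 0.974. These were among the least precise values of the set.

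Spans of the members were short. The median span was 804.5 bp in the 90 members, 1291 bp in the 1441 eligible genes and 1308 bp in the 66 genes that met the mirror rule, at least 2-fold higher in the CLF RIP without overlap. Among eligible genes of 300 to 599 bp, 22 of 148 (14.9%) were members, against 44 of 528 (8.33%) at 600 to 1199 bp and 24 of 765 (3.14%) at 1200 bp or more. The mirror rule took 5.41%, 3.79% and 4.97% of the same classes. The span was not used by the rule beyond its minimum, but FPKM per read is larger on short loci, and no test was made of the shares. Level differed as well, since 32.2% of members but 13.3% of eligible genes had a mean control RIP value of 20 FPKM or more, a value the rule used. RNA class did not set the members apart by much, with 90.0% protein-coding against 92.0%, 5.56% pseudogenes against 3.54% and 4.44% noncoding RNA against 4.09%. Members lay on all 5 chromosomes, 27, 15, 11, 12 and 25 of them from chromosome 1 to 5.

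**Figure D4:**
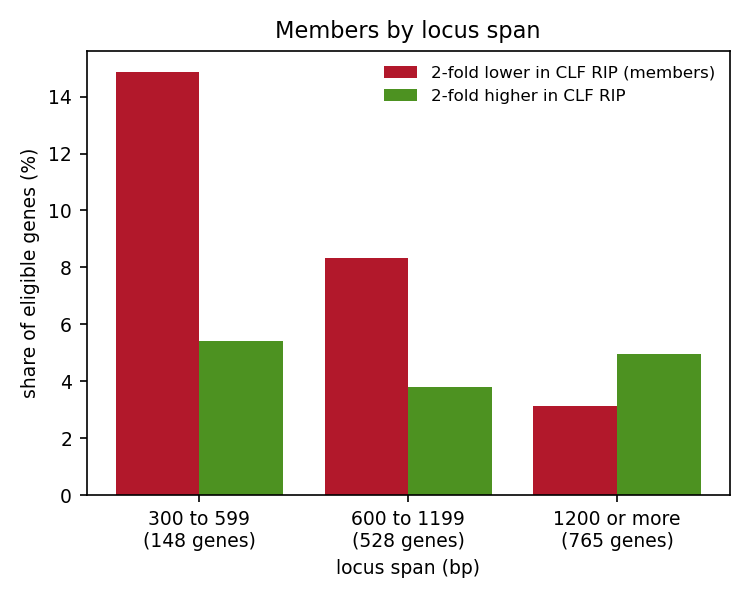
Share of eligible genes, in percent, that were at least 2-fold lower (red, the members) or at least 2-fold higher (green) in the CLF RIP, by locus span in bp. The red share is 14.9% in the shortest class and 3.14% in the longest, while the green share lies between 3.79% and 5.41% in all 3 classes.

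Few genes of the pathway lists had an identifier of their own in all 4 libraries, 4 of 50 photosynthesis genes, 8 of 35 rapid stress and touch genes and 4 of 22 cell wall genes. To describe these lists and the members' families, loci were matched across libraries by position, which gave 14668 genes for limma's test, of which 0.552% were called lower and 0.689% higher at an adjusted p under 0.05. In that set 36.7% of genes had a log2 fold change (CLF RIP over control RIP) below 0, and the median was 0.25, which became -0.12 once structural RNA genes were dropped and values rescaled. A count of 0 calls from this fit does not show that the genes were alike in both groups. These calls needed all 4 libraries, as 0 or 1 gene was called lower with any 1 library left out (547 to 1178 at an unadjusted p under 0.05). By locus, 700 genes met the rule, the 90 among them, so the members are those of a larger set that kept their identifiers.

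Of 14 arabinogalactan protein genes tested, 10 were below 0, and their median log2 fold change was -0.73. The 4 members are among these by choice. Of the other 10 genes, 6 were below 0 and limma called 0 in either direction, with 4 at an unadjusted p under 0.05. Of 11 fasciclin-like genes tested, 9 were below 0, 7 of 9 when FLA7 and FLA9 were set aside, with a median of -0.89 over all 11. Limma called 0 of them, and 4 of the 9 had an unadjusted p under 0.05. Of these 4, FLA5 was higher in the CLF RIP and the others were lower. The direction of both medians is that of most of their genes. Of both families only AGP16, a member, passed this test (adjusted p = 0.0360).

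The families of other members were mixed. Of 8 lipid transfer genes tested 5 were below 0, of 4 abscisic acid receptor genes 3, of 5 calmodulin-like genes 3, of 4 PP2-B genes 2 and of 3 ZAT genes all 3. Limma called only 1 of these genes, the member LP1 (adjusted p = 0.0475). Apart from the members, the number with an unadjusted p under 0.05, either way, was 1 of 7, 0 of 3, 0 of 4, 1 of 3 and 2 of 2 in turn. The lipid transfer gene LTP2 and the PP2-B gene PP2-B11 were higher in the CLF RIP, against the direction of the members. Both ZAT genes, ZAT6 and ZAT7, were lower. Among 4 RADIALIS-like genes tested, 3 were below 0, the members RL4 and RL5 and the other gene RL6 (log2 change -0.55, SE 0.30). RL2, a further relative, lay the other way, at 2.52 and 2.84 FPKM in control libraries, against 17.6 and 13.6 FPKM in CLF libraries. Its log2 change was 2.16 (SE 0.23), and it missed the threshold (adjusted p = 0.0672). The counts of arabinogalactan, lipid transfer and calmodulin-like genes below 0 rose to 12, 6 and 5 under quantile or median-of-ratios scaling.

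Nuclear photosynthesis genes, the pathway of PSAG and LHCB4.2, were below 0 in 29 of 29 genes tested, as deposited and under each other scaling. Limma called 11 lower and 0 higher, and the list's median log2 fold change was -1.06. RBCS1A, the main small subunit gene of Rubisco, fell from 1308 and 1290 FPKM in control libraries to 406 and 396 in CLF libraries (log2 change -1.69, SE 0.04, adjusted p = 0.0226). The antenna gene LHCB1.2 fell from 468 and 441 to 120 and 120 FPKM (log2 change -1.91, SE 0.07, adjusted p = 0.0360). LHCB1.3 fell from 953 and 958 to 422 and 427 FPKM (log2 change -1.17, SE 0.04, adjusted p = 0.0360). LHCB1.1, LHCB1.2 and LHCB1.3 are near-identical copies whose reads can be split by the counting. Only 4 of the list's 50 genes had an identifier of their own in all libraries, and 2 of these 4 are members.

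Among cell wall expansion genes, a list that holds FLA7 and FLA9, 15 of 19 tested were below 0 with a median of -0.89. Limma called 1 lower, XTH4, a xyloglucan-modifying enzyme gene, which fell from 353 and 344 to 80.2 and 81.1 FPKM (log2 change -2.10, SE 0.08, adjusted p = 0.0360). XTH23 was at 10.5 and 11.4 against 3.22 and 3.23 FPKM (adjusted p = 0.0789). The expansin gene EXPA1 was at 103 and 124 against 36.6 and 44.1 FPKM (adjusted p = 0.0805), so XTH23 and EXPA1 missed the threshold.

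Among rapid stress and touch genes, the list of ERF6, 13 of 17 tested were below 0, with a median of -0.56. Limma called 0 in either direction, and 10 had an unadjusted p under 0.05. Of these 10, CBF1 was higher in the CLF RIP and the others were lower. ERF11 was at 99.6 and 102 FPKM in control libraries, against 46.6 and 43.1 FPKM in CLF libraries (adjusted p = 0.0743), and WRKY40 was at 372 and 338 against 195 and 213 FPKM (adjusted p = 0.0743). ERF5, a relative of ERF6, lay just outside the bound at 31.0 and 34.3 against 16.4 and 15.5 FPKM.

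Morning clock genes could hold no member, as 0 of the 13 listed had an identifier of their own in all 4 libraries. Of 12 tested by locus, 9 were below 0, with a median of -1.04. Limma called 0 of them, and 8, with RVE6 among them, had an unadjusted p under 0.05. LNK2 was at 100.4 and 67.9 FPKM in control libraries, against 24.1 and 28.5 FPKM in CLF libraries (adjusted p = 0.102), RVE4 at 70.2 and 43.1 against 14.7 and 18.7 FPKM (adjusted p = 0.119), and RVE6 lay the other way at 10.1 and 7.17 against 31.0 and 25.9 FPKM (adjusted p = 0.102). The list thus held genes on both sides.

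Developmental targets of Polycomb, the genes CLF is best known for, held no member. Only 8 of the 30 listed had an identifier of their own in all 4 libraries, and a gene without one could not be a member. Of 19 tested, 17 were below 0, with a median of -1.19, and limma called 2 lower and 0 higher. SEP3, AP3, PI and AG of this list are also the flower markers. They made up nearly all of the flower and seed sum (36.0 and 50.3 FPKM in control libraries, 8.71 and 10.9 FPKM in CLF libraries). The part of flower tissue in the list's values was not tested. AGL17 fell from 6.35 and 5.46 to 0.338 and 0.339 FPKM (log2 change -2.36, SE 0.19, adjusted p = 0.0450). MAF5 fell from 12.3 and 11.6 to 1.73 and 1.60 FPKM (log2 change -2.28, SE 0.19, adjusted p = 0.0450). SEP3 was at 16.7 and 14.3 against 2.52 and 1.47 FPKM and missed the threshold (adjusted p = 0.0738). SOC1, chosen after its values were seen, lay the other way, at 45.7 and 39.8 against 145 and 117 FPKM (adjusted p = 0.0743).

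**Figure D5:**
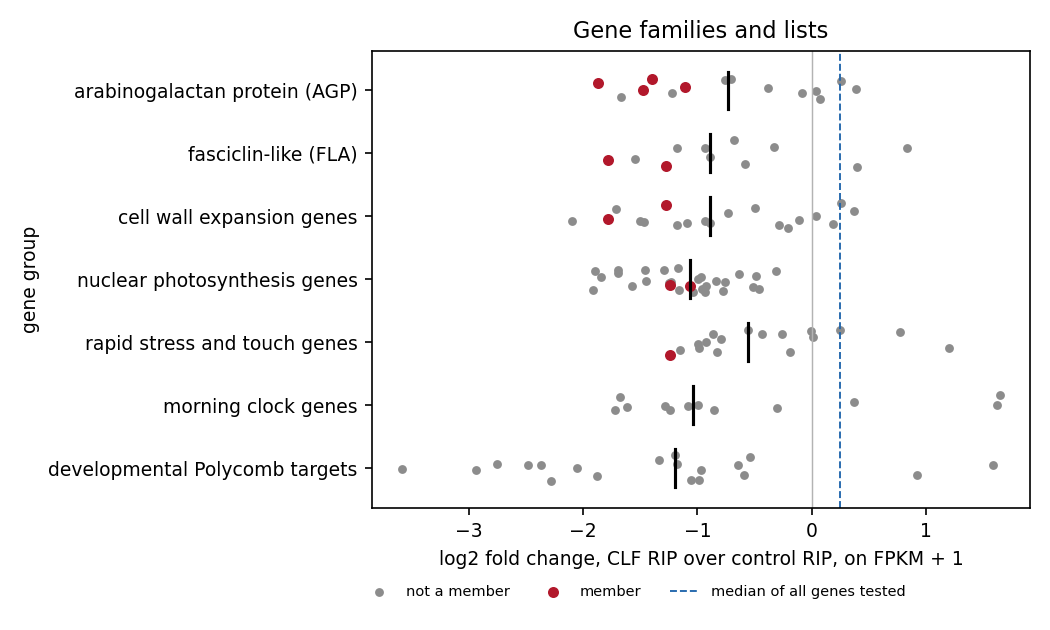
Log2 fold change, CLF RIP over control RIP on FPKM + 1, of each tested gene in 2 gene families and 5 gene lists, with members in red, other genes in grey and a black bar at each group's median. The dashed line marks the median of all 14668 genes tested, 0.25, and all 7 group medians lie below 0, between -1.19 and -0.56.

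How many of the 90 reached the bound depended on the scale. Once structural RNA genes were dropped and values rescaled, 29 of the 90 remained at least 2-fold lower and the lowest fold was 1.53. With 5 added to each value in place of 1, 24 remained.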

How the data were processed

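RNA immunoprecipitates of 4 libraries were compared, 2 labelled control RIP and 2 labelled CLF RIP. Per the submitters' processing notes, the authors used Trimmomatic and TopHat2 2.0.10 with the TAIR10 genome. Each deposited table gives FPKM per locus, per the file headers, and no label or header names the program that made them. Coordinates are those of the tables, while symbols and RNA classes were looked up in RefSeq's TAIR10.1 gene table. It held all 90 members and lacked 380 of the 14696 identifiers. The roles that group the protein-coding members were assigned here and are not from RefSeq. The members, gene lists and families were chosen with earlier results of these data known, and the families after values were seen.

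For tests, values became log2(FPKM + 1) and a gene needed 1 FPKM in 2 libraries. The tool was limma 3.58.1 under R 4.3.3, with lmFit, then eBayes (robust, with a trend), and Benjamini-Hochberg adjusted p under 0.05 as threshold. A fold on this scale understates the change of low genes. Loci without identifiers in all libraries were matched by a reciprocal overlap of 0.8 or more, with spans of 300 bp or more and a single gene per locus. The fit was tested on simulated data. Nothing in the labels says that a group's libraries were made from different plants, so p-values cover only the spread among these libraries, possibly technical.

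Reads were recovered as the smallest whole numbers, within 0.02, whose ratios gave a gene's 4 values divided by what 1 read is worth on a 75 bp locus, and 86.5% of eligible genes came out whole. No count test was made, since a gene's reads are known only up to a whole multiple. Named members were the 20 with the largest fold, the 10 with the highest control RIP mean, those in a list or family, neighbours and those at the bound, and further members were named after their values were seen. Of the lists, the 3 genes with the smallest p were named. Promoters, proteins and motifs were not used here. Scripts ran on Python 3.11.15 with numpy 2.4.6, pandas 2.3.3, matplotlib 3.10.9 and scipy 1.17.1.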

Additional observations from a re-analysis of the deposited data

How the results depend on the processing

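The number of genes that met the rule, 90, became 24 with a pseudocount of 5, 140 under median-of-ratios scaling, 29 once structural RNA genes were dropped and values rescaled, and 700 when genes were matched by locus. In 2 settings chosen after seeing the data it was 141 from recovered reads without a pseudocount, with 84 members among them, and 56 with at least 10 CLF RIP reads. It was 93 to 121 when 1 library was left out, with 75 to 80 of the 90 among them. Limma's calls over genes with their own identifier (204 lower, 284 higher) became 23 and 27 without a filter on low values, and 86 and 456 once structural RNA genes were dropped. The higher calls were 183 under quantile normalization and 166 under median-of-ratios scaling. Deviations of libraries with the same replicate number had a correlation of 0.0062 over 2462 genes. That value cannot show whether these libraries were processed as pairs. With the replicate number as a block limma called 41 lower and 44 higher. Leaving out 1 library gave 0 to 253 lower and 0 to 182 higher calls, the 0 without either control RIP library, where 144 and 134 genes were lower and 324 and 314 higher at an unadjusted p under 0.05. Of the calls over genes matched by locus (81 lower, 101 higher), a pseudocount of 5 left 2 lower and 0 higher (2440 higher at an unadjusted p under 0.05), and dropping the filter left 1 and 0 (2751 higher unadjusted). A plain prior left 0 and 0 (1109 and 2609 unadjusted), and the replicate block left 1 and 0 (1830 higher unadjusted). Once structural RNA genes were dropped, 48 were higher. Leaving out 1 library left 0 to 1 lower and 0 to 0 higher, where 1085 to 2356 genes were higher at an unadjusted p under 0.05. The median log2 fold change under quantile normalization and under median-of-ratios scaling was -1.30 and -1.34 for photosynthesis genes, -1.31 and -1.29 for morning clock genes, -0.76 and -0.84 for rapid stress genes, -1.19 and -1.15 for cell wall genes and -1.46 and -1.43 for Polycomb targets. Over the libraries left out in turn it ran from -1.15 to -1.08 for photosynthesis genes, from -1.03 to -0.84 for morning clock genes, from -0.58 to -0.54 for rapid stress genes, from -0.91 to -0.76 for cell wall genes and from -1.40 to -1.07 for Polycomb targets. Across genes with their own identifier, the median log2 fold change was 0.11 as deposited, 0.01, -0.06 and 0.40 under quantile, median-of-ratios and structural RNA settings. Across genes matched by locus it was 0.25 as deposited and 0.02, 0.01 and -0.12 in turn. In the structural RNA setting, the libraries were also rescaled to a common total within each gene set. Dropping and rescaling together moved the medians of these gene sets opposite ways, and their parts were not told apart. In that setting 2161 genes matched by locus were lower at an unadjusted p under 0.05, against 1125 as deposited. The cause of these moves was not tested. Few CLF RIP reads limit most members.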
